A study of Mus musculus with 4 samples.

Results

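The genes described here encode the enzymes that build cholesterol and fatty acids from acetyl-CoA, with the proteins that switch these pathways on and off, in back skin of mice with extra IKKbeta in keratinocytes. The list was chosen by gene name from what each protein does, with earlier results of these data known, and held 32 genes. For 31 of them the array had at least 1 probe set that names no other gene, out of 18194 genes measured this way, and the brightest probe set by the mean of the 4 arrays stands for the gene. Acat2, a cytosolic thiolase that makes acetoacetyl-CoA, was not analysed here. The 31 genes comprise 17 enzymes of cholesterol synthesis (the cholesterol arm), 8 enzymes that supply, build or desaturate fatty acids (the fatty acid arm), and 6 regulators and sterol carriers.

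RNA of K5-IKKbeta transgenic skin (2 arrays) was compared with RNA of wild type skin, which the labels also call control (2 arrays). The transgene is driven by keratin K5 regulatory elements and encodes IKKbeta (gene Ikbkb), a kinase upstream of NF-kB. These elements are active in the basal layer of the epidermis and in the outer layers of the follicle. All animals were males of 32 days from a C57BL6 X DBA2 background, and each array held RNA of 3 mice of its genotype, called a pool below. The number of transgenic lines was not given in the sources used here. Whole back skin holds epidermis, hair follicles, sebaceous glands, dermis, fat and muscle, so fewer cells of a type and less RNA per cell cannot be told apart.

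Cells make cholesterol from acetyl-CoA through mevalonate, isoprenoid units, squalene and a series of sterol intermediates. Fatty acids come from the same acetyl-CoA, which is carboxylated to malonyl-CoA and joined into chains. Both pathways are switched on by SREBP transcription factors, membrane proteins that Scap carries to the Golgi for cleavage when sterols are low and that Insig proteins hold back when sterols are plentiful. In skin these lipids supply the barrier between the outermost epidermal cells, the sebum of the sebaceous gland and the fat layer under the dermis.

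Array medians (log2) were 6.96 and 6.95 on the K5-IKKbeta arrays and 6.92 and 6.91 on the wild type arrays. All 31 genes lay above the filter on dim probe sets and were tested. Their values ran from 7.40 to 13.05, above the array medians, but no detection calls were used. Each log2 fold change is the K5-IKKbeta mean less the wild type mean, and a gene is said to rise or fall where limma's p adjusted over all 13074 tested genes is under 0.05. Of the 5 Ikbkb probe sets, 3 rose in a fit over all 45101 probe sets, in which 16.3% were called. The brightest gave a log2 fold change of 0.50. The one with the largest change (2.24) had values of 8.77 and 8.74 in K5-IKKbeta skin and 6.50 and 6.54 in wild type skin. Those that did not pass gave -0.15 and 0.14. Keratin 14 of basal keratinocytes (Krt14) had values of 13.81 and 13.50 in K5-IKKbeta skin and 13.19 and 13.07 in wild type skin, so this keratinocyte gene was well above background in all 4 pools. Differences between the 3′ and 5′ control probe sets of beta-actin, a sign of RNA quality, were 0.32 and 0.29 on the K5-IKKbeta arrays and 0.36 and 0.33 on the wild type arrays. Those of Gapdh were -0.02 and -0.06 on the K5-IKKbeta arrays and -0.12 and -0.13 on the wild type arrays.

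More than 1 in 2 of the lipid synthesis genes rose in the transgenic skin. Of the 31, 18 rose, 2 fell and 11 did not pass the threshold, so 64.5% were called, beside 33.9% of all tested genes. For single directions the background was 23.4% higher and 10.6% lower. The pools did not overlap for 28 genes, beside 69.5% of all tested genes, with K5-IKKbeta above in 24 and below in 4; over all tested genes the shares by direction were 45.2% above and 24.3% below. Changes of at least 2-fold were found for 6 genes: Acacb, Acss2, Msmo1, Cyp51 and Fasn rose and Fads2 fell. The 2 genes that fell were Fads2, a fatty acid desaturase, and Stard4, a carrier of cholesterol between membranes.

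**Figure D1:**
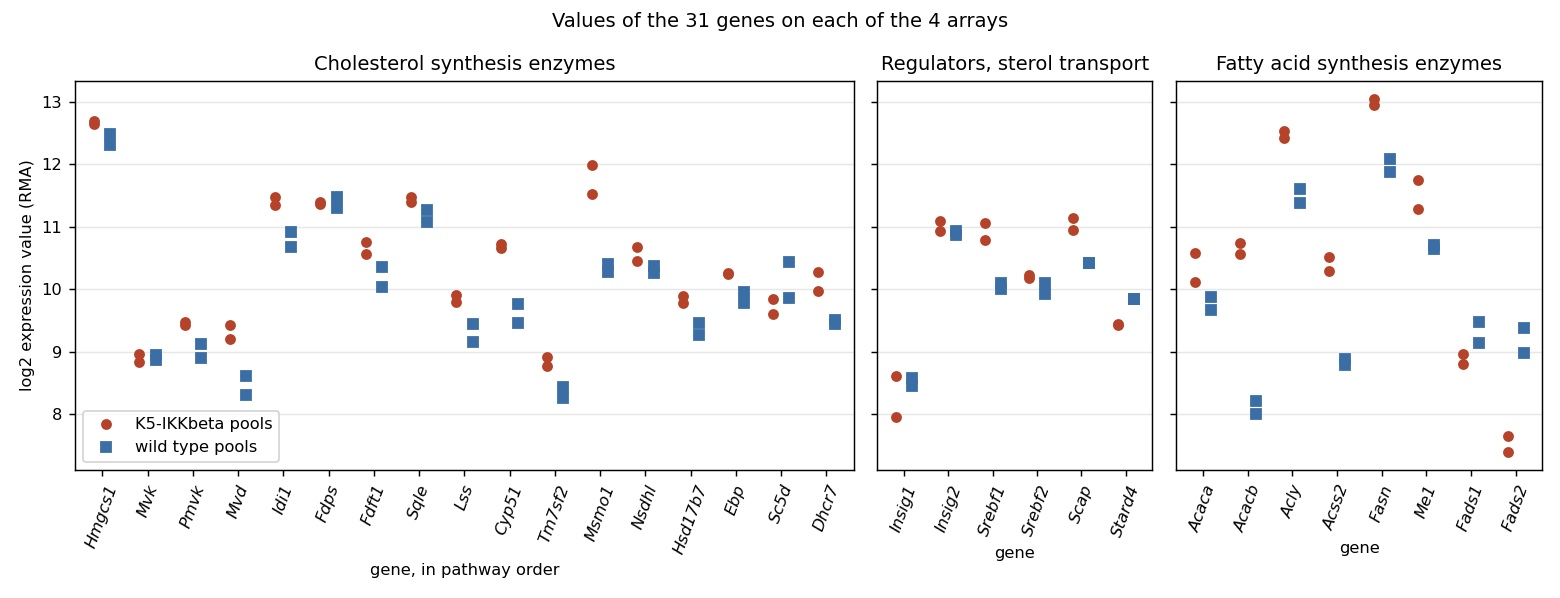
Log2 expression (RMA, vertical axis) of the 31 genes on each array, with K5-IKKbeta pools as red circles left of wild type pools as blue squares, 2 pools each. Heights should be compared within a gene only; the pools of the 2 genotypes lie apart for 28 genes and overlap for Mvk, Fdps and Insig1.

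Of the 17 enzymes of the cholesterol arm 11 rose (64.7%, beside 23.4% of all tested genes), none fell and 6 did not pass. At an unadjusted limma p under 0.05, 12 were higher and 0 lower, while 44.2% of all tested genes reached it in either direction. The median log2 fold change was 0.47, beside 0.09 over all tested genes. Fitted changes in the arm ran from -0.42 for Sc5d to 1.42 for Msmo1.

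The first enzymes, which lead from acetyl-CoA to isoprenoid units, were divided. Hmgcs1, which makes HMG-CoA, had log2 values of 12.64 and 12.70 in K5-IKKbeta skin and 12.31 and 12.48 in wild type skin. The pools did not overlap, but the log2 fold change of 0.27 ± 0.10 (SE) did not pass (adjusted p = 0.097). Mvk, the mevalonate kinase, had values of 8.97 and 8.84 in K5-IKKbeta skin and 8.87 and 8.96 in wild type skin, which overlapped. Pmvk, the next kinase of the chain, had values of 9.43 and 9.49 in K5-IKKbeta skin and 8.90 and 9.13 in wild type skin, and rose 1.36-fold (adjusted p = 0.028). Mvd, which removes carbon dioxide to form the isoprenoid unit, had values of 9.43 and 9.21 in K5-IKKbeta skin and 8.31 and 8.62 in wild type skin. This was the highest rise of the isoprenoid steps, at 1.81-fold (log2 fold change 0.86 ± 0.14, adjusted p = 0.0062). Idi1, the isomerase that makes the reactive form of that unit, had values of 11.34 and 11.48 in K5-IKKbeta skin and 10.67 and 10.92 in wild type skin, and rose 1.53-fold (adjusted p = 0.011). Fdps, which joins the units into farnesyl diphosphate, had values of 11.37 and 11.40 in K5-IKKbeta skin, inside the wild type span of 11.30 and 11.47. Its log2 fold change was -0.0022, with a 95% confidence interval from -0.26 to 0.25. Thus 3 of these 6 enzymes rose, with a median log2 fold change of 0.36.

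From squalene on, 8 of 11 enzymes rose, with a median log2 fold change of 0.47. Fdft1, squalene synthase, had values of 10.76 and 10.57 in K5-IKKbeta skin and 10.03 and 10.35 in wild type skin, and rose 1.39-fold (adjusted p = 0.044). Sqle, which oxidises squalene and is a rate-limiting step, had values of 11.48 and 11.40 in K5-IKKbeta skin and 11.07 and 11.27 in wild type skin. Its pools did not overlap, and its log2 fold change of 0.27 ± 0.11 did not pass (adjusted p = 0.11). Lss, which closes the sterol rings to lanosterol, had values of 9.79 and 9.91 in K5-IKKbeta skin and 9.16 and 9.45 in wild type skin, and rose 1.46-fold (adjusted p = 0.022).

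The enzymes that trim methyl groups from lanosterol held the highest rises of the arm. Msmo1, the methylsterol oxidase, had values of 11.52 and 11.99 in K5-IKKbeta skin and 10.28 and 10.40 in wild type skin. Both transgenic pools lay well above both wild type pools, with a rise of 2.67-fold (log2 fold change 1.42 ± 0.17, adjusted p = 0.0016). Cyp51, the lanosterol demethylase, had values of 10.73 and 10.67 in K5-IKKbeta skin and 9.46 and 9.76 in wild type skin, a rise of 2.12-fold (log2 fold change 1.09 ± 0.13, adjusted p = 0.0017). Tm7sf2, a sterol reductase that acts after Cyp51, had values of 8.92 and 8.78 in K5-IKKbeta skin and 8.27 and 8.43 in wild type skin, and rose 1.41-fold (adjusted p = 0.017). Hsd17b7, which reduces the ketone left by demethylation, had values of 9.79 and 9.90 in K5-IKKbeta skin and 9.27 and 9.47 in wild type skin, and rose 1.38-fold (adjusted p = 0.022). Nsdhl, the dehydrogenase that works between Msmo1 and Hsd17b7, had values of 10.46 and 10.69 in K5-IKKbeta skin and 10.37 and 10.26 in wild type skin. It did not pass (log2 fold change 0.26 ± 0.12, adjusted p = 0.14), which leaves 4 of these 5 genes called higher.

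The last steps differed among themselves. Ebp, the sterol isomerase, had values of 10.25 and 10.27 in K5-IKKbeta skin and 9.78 and 9.97 in wild type skin, and rose 1.31-fold (adjusted p = 0.035). Dhcr7, which reduces the last intermediate to cholesterol, had values of 10.28 and 9.98 in K5-IKKbeta skin and 9.45 and 9.51 in wild type skin, and rose 1.56-fold (adjusted p = 0.011). Sc5d, the sterol desaturase between them, had values of 9.60 and 9.85 in K5-IKKbeta skin and 9.86 and 10.43 in wild type skin. It was the enzyme of the arm with the most negative fold change (-0.42 ± 0.20), which did not pass (adjusted p = 0.17). The wild type pools of Sc5d differed by 0.58, more than those of any other gene of the 31. Its remaining probe sets gave log2 fold changes of 0.32 and 0.02, so the direction for Sc5d depends on the probe set.

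Wild type pool 2 lay above pool 1 in 16 of the 17 cholesterol enzymes, with a median difference of 0.20, while over all tested genes pool 2 was above in 62.7%, with a median of 0.05. The K5-IKKbeta pools showed no such order, with pool 2 above pool 1 in 10 of 17 (median difference 0.04). The wild type order was not particular to this arm. Among lists described below, wild type pool 2 was above in 7 of 7 enzymes of other isoprenoids (median 0.17) and 9 of 9 proliferation genes (0.19). It was above in 5 of 8 fatty acid enzymes (0.15) and in 2 of 10 white adipocyte markers (-0.22). The calls for Mvd, Cyp51 and Msmo1 held without each array in turn. Without wild type pool 1 the other 8 calls were lost, for Pmvk, Idi1, Fdft1, Lss, Tm7sf2, Hsd17b7, Ebp and Dhcr7, with adjusted p from 0.080 to 0.24. Sc5d then passed as lower (log2 fold change -0.71, adjusted p = 0.045). Without wild type pool 2, 6 calls were lost, for Pmvk, Fdft1, Tm7sf2, Hsd17b7, Ebp and Dhcr7, with adjusted p from 0.052 to 0.078. Fdft1 was also lost without K5-IKKbeta pool 1 (adjusted p = 0.095), and Ebp without K5-IKKbeta pool 1 or pool 2 (adjusted p = 0.052 and 0.058). The share of all tested genes that was called was 18.2% without wild type pool 1 and 17.2% without pool 2. The arm's median log2 fold change was 0.33 without wild type pool 1 and 0.57 without pool 2.

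The fatty acid arm moved further in both directions. Of its 8 enzymes 5 rose (62.5%, beside 23.4% of all tested genes), 1 fell and 2 did not pass (median log2 fold change 0.91). Among the 6 enzymes that supply and build the carbon chain 5 rose, and the desaturases Fads1 and Fads2 had negative fold changes.

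Acetyl-CoA for both pathways is made by Acly from citrate and by Acss2 from acetate. Acly had values of 12.42 and 12.53 in K5-IKKbeta skin and 11.38 and 11.61 in wild type skin, and rose 1.97-fold (log2 fold change 0.98 ± 0.12, adjusted p = 0.0018). Acss2 had values of 10.29 and 10.52 in K5-IKKbeta skin and 8.80 and 8.89 in wild type skin, and rose 2.95-fold (log2 fold change 1.56 ± 0.12, adjusted p = 0.00034). For both genes the transgenic pools lay far above the wild type pools compared with the gap within a genotype. Me1, malic enzyme, which supplies NADPH, had values of 11.28 and 11.75 in K5-IKKbeta skin and 10.71 and 10.65 in wild type skin. It rose 1.79-fold (adjusted p = 0.011), with a gap of 0.46 between the K5-IKKbeta pools.

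The carboxylases that make malonyl-CoA differed in size of change. Acacb, the form bound to mitochondria, whose malonyl-CoA restrains fatty acid oxidation, had values of 10.74 and 10.57 in K5-IKKbeta skin and 8.21 and 8.003 in wild type skin. It rose 5.83-fold (log2 fold change 2.54 ± 0.12, adjusted p = 7.2e-05), the highest rise of the 31 genes, and 99.6% of all tested genes had a lower fold change. Its other probe set, too dim for the filter, gave -0.31, and averaging both probe sets Acacb gave 1.12 (adjusted p = 0.0011), below Acss2 averaged likewise, at 1.21. Acaca, the cytosolic form that feeds chain synthesis, had values of 10.11 and 10.59 in K5-IKKbeta skin and 9.67 and 9.88 in wild type skin. Its log2 fold change of 0.57 ± 0.17 fell just short (adjusted p = 0.050, 95% confidence interval 0.144 to 0.999). Fasn, the fatty acid synthase that assembles the chain, had values of 12.94 and 13.05 in K5-IKKbeta skin and 12.08 and 11.87 in wild type skin, and rose 2.03-fold (log2 fold change 1.02 ± 0.11, adjusted p = 0.0013).

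Fads2, which starts the desaturation of essential fatty acids and in sebaceous glands of human skin makes sapienic acid, had values of 7.40 and 7.65 in K5-IKKbeta skin and 8.99 and 9.39 in wild type skin. It fell 3.17-fold (log2 fold change -1.66 ± 0.17, adjusted p = 0.00093), and 1.8% of all tested genes had a lower fold change. All 3 of its probe sets fell, with log2 fold changes of -1.66, -1.29 and -0.63. Fads1, the desaturase that acts later in the same route, had values of 8.81 and 8.96 in K5-IKKbeta skin and 9.14 and 9.48 in wild type skin. The pools did not overlap, and the log2 fold change of -0.42 ± 0.14 did not pass (adjusted p = 0.066).

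Calls for Acacb, Acly, Acss2, Fasn and Fads2 held without each array in turn. Me1 lost its call without wild type pool 1 (adjusted p = 0.058) or pool 2 (adjusted p = 0.071). Acaca passed as higher without K5-IKKbeta pool 1 (log2 fold change 0.81, adjusted p = 0.0024), and Fads1 passed as lower without K5-IKKbeta pool 2 (-0.49, adjusted p = 0.042).

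Set side by side, the cholesterol arm's median log2 fold change was 0.44 below that of the fatty acid arm (difference -0.44). For the 4 pairs of a K5-IKKbeta pool with a wild type pool, the difference between the arm medians was -0.19, -0.48, -0.41 and -0.65, so its sign was the same in each pair while its size varied; the pairs share pools. The cholesterol medians of these pairs ran from 0.31 to 0.54 and the fatty acid medians from 0.72 to 1.01, without overlap. Over Acly, Acss2, Acaca, Acacb, Fasn and Me1 alone, 5 of 6 rose with a median of 0.9996. No test was made of the difference between the arms.

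**Figure D2:**
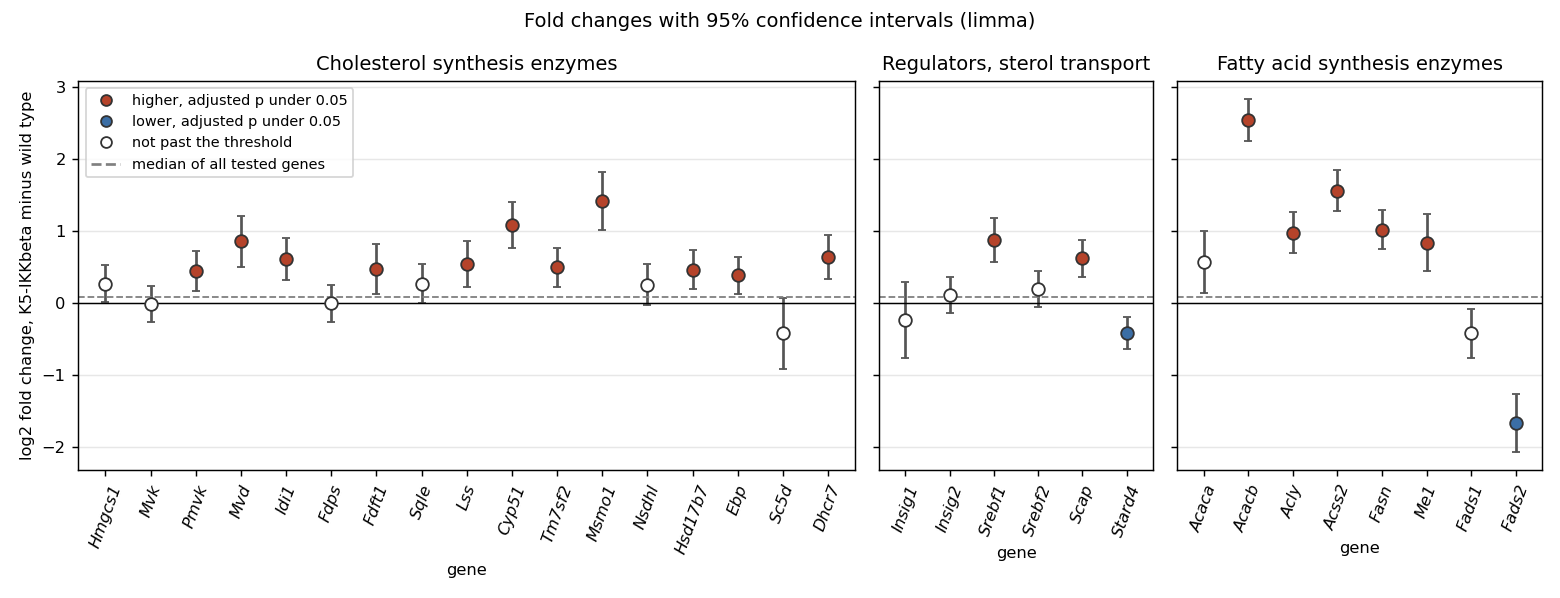
Log2 fold change of each gene, K5-IKKbeta minus wild type, with its 95% confidence interval from limma (2 arrays a group); filled points passed the threshold. The cholesterol enzymes run from -0.42 to 1.42, and the fatty acid enzymes from -1.66 for Fads2 to 2.54 for Acacb.

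Among the regulators, Srebf1 and Scap rose. Srebf1, whose SREBP proteins act mainly on fatty acid genes, had values of 11.07 and 10.79 in K5-IKKbeta skin and 10.002 and 10.11 in wild type skin, a rise of 1.83-fold (log2 fold change 0.87 ± 0.12, adjusted p = 0.0034). Its single probe set does not say which Srebf1 transcript changed. Srebf2, whose SREBP acts mainly on cholesterol genes, had values of 10.24 and 10.19 in K5-IKKbeta skin and 9.93 and 10.10 in wild type skin. Its log2 fold change of 0.20 ± 0.10 did not pass (adjusted p = 0.20), and a further probe set gave -0.11. Scap, the SREBP escort, had values of 11.14 and 10.95 in K5-IKKbeta skin and 10.42 and 10.43 in wild type skin, and rose 1.54-fold (adjusted p = 0.0069). The call for Srebf1 held without each array in turn, and that for Scap was lost without either wild type pool (adjusted p = 0.055 each).

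The Insig genes did not pass. Insig1, itself switched on by SREBP, had values of 7.95 and 8.62 in K5-IKKbeta skin and 8.58 and 8.45 in wild type skin. The K5-IKKbeta pools differed by 0.66, the widest gap within that genotype among the 31 genes, and the log2 fold change was -0.23 ± 0.22 (adjusted p = 0.46). Insig1 passed as lower without K5-IKKbeta pool 2 (log2 fold change -0.56, adjusted p = 0.0093) and was 0.10 without K5-IKKbeta pool 1, so single pools decide its sign. Insig2 had values of 11.09 and 10.93 in K5-IKKbeta skin and 10.87 and 10.93 in wild type skin (log2 fold change 0.11, adjusted p = 0.45). Its other probe sets gave 0.04 and -0.20.

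Stard4, which carries cholesterol through the cytosol, had values of 9.45 and 9.43 in K5-IKKbeta skin and 9.85 and 9.85 in wild type skin. It fell 1.33-fold (log2 fold change -0.41 ± 0.09, adjusted p = 0.017), and the pools of each genotype lay within 0.02 of each other. Stard4 is a known SREBP target. Its fold change was opposite to those of the 11 cholesterol enzymes that rose, and the part of SREBP in these changes was not tested. A further probe set fell by 0.70 on the log2 scale, and another gave -0.13 and did not pass. The call was lost without wild type pool 1 (adjusted p = 0.11) and without wild type pool 2 (adjusted p = 0.11).

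Probe sets of a gene mostly gave the same sign. Of the 71 probe sets for the 31 genes 64 lay above the filter on dim probe sets, and 20 genes had more than 1 of these. In 15 of the 20 all had the same sign. The signs were mixed for Hmgcs1, Mvk, Sc5d, Insig2 and Srebf2, none of which passed. Acly had 3 probe sets that rose, and Acss2, Me1, Mvd and Msmo1 had 2 each above the filter that rose. In Idi1, Lss, Cyp51, Hsd17b7 and Scap the brightest probe set alone passed, by the fit over all probe sets, in which 16.3% of 45101 were called. With the mean of all probe sets in place of the brightest, Idi1 (0.39, adjusted p = 0.15), Fdft1 (0.27, adjusted p = 0.073) and Hsd17b7 (0.15, adjusted p = 0.28) lost their calls. Lss, Cyp51 and Acly kept theirs at lower log2 fold changes of 0.32, 0.70 and 0.45. In the fit over all probe sets Pmvk, Fdft1 and Ebp had no probe set that passed. For Idi1 the other probe set gave 0.16, with values of 9.74 and 10.46 in K5-IKKbeta skin and 9.74 and 10.14 in wild type skin.

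**Figure D3:**
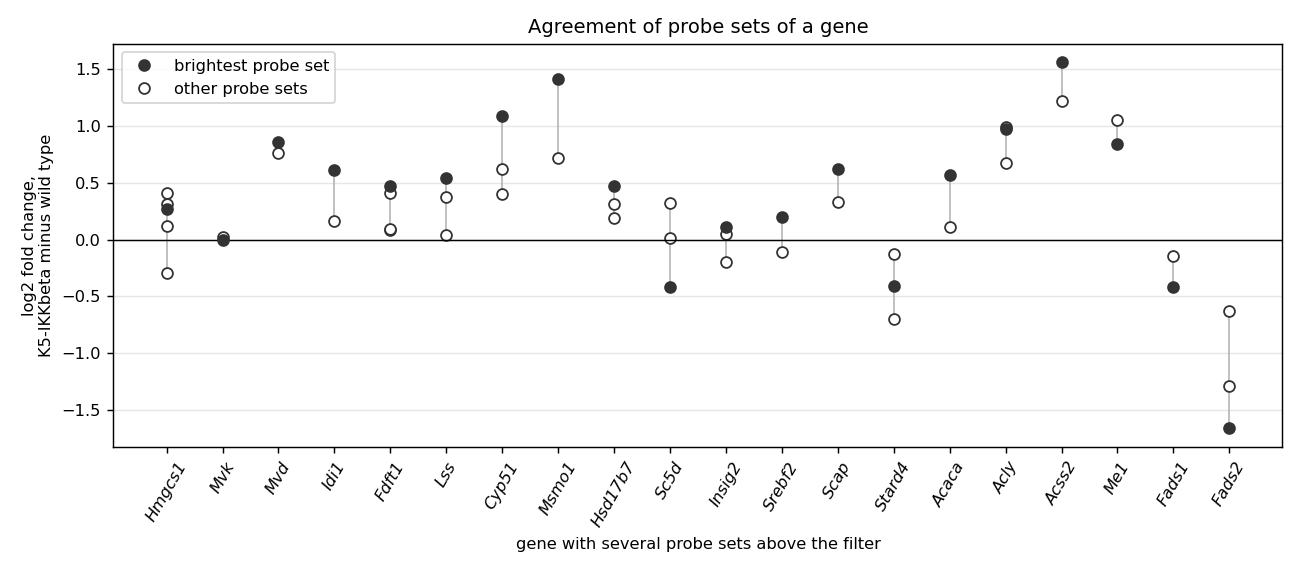
Log2 fold change, K5-IKKbeta minus wild type, of every probe set above the filter, for the 20 genes with more than 1 (filled, the brightest; open, the others). The points of a gene lie on the same side of 0 for 15 of the 20 genes; those of Sc5d run from -0.42 to 0.32.

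Promoter sequences are shown for some genes of both arms, picked as stated below, so that the SREBP-related letters in them can be seen. RefSeq promoter windows (GRCm38.p6, 250 bases before to 50 after the annotated start) were found for 27 of the 32 listed genes, 36 windows in all. The sterol regulatory element, searched as TCACNCCAC on both strands, was in 1 of the 36 (2.78%), that of Hmgcs1, and in 1.24% of all 32851 windows. CCAAT on either strand, the box of NF-Y, a factor that works with SREBP at many sterol genes, was in 24 windows (66.7%), beside 37.4% of all. By gene, it was in 14 of 15 cholesterol enzymes (the exception was Acat2) and in 5 of 7 fatty acid enzymes. GGGCGG, the box of Sp1, was in 27 windows (75.0%), beside 35.7% of all. The E-box CACGTG was in 6 (16.7%), beside 7.15%, and the NF-kB consensus motif in 6 (16.7%), beside 4.51%. A match in letters is not shown to be a binding site. Variant forms of these motifs were not searched, so a window without a match is not shown to lack a site.

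Capitals below mark TCACNCCAC or CCAAT on either strand, and each line runs 5′ to 3′ along the gene. Hmgcs1 is shown for its sterol regulatory element, which begins 137 bases before the start, and Cyp51 and Msmo1 for the highest rises of the cholesterol arm.
Hmgcs1, chr13:119690101-119690400, plus strand: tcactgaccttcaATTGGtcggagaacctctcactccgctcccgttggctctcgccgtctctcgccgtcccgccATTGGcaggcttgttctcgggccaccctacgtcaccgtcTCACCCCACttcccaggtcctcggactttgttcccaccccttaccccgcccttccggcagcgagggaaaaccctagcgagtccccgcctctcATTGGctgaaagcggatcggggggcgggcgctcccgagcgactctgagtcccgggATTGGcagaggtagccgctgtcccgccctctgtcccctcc
Cyp51, chr5:4104648-4104947, minus strand: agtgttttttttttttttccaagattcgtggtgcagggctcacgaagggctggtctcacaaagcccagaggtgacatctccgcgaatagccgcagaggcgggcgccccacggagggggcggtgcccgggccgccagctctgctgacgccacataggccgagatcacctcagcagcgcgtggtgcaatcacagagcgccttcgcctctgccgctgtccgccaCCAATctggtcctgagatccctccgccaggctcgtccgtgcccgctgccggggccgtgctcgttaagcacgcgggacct
Msmo1, chr8:64733529-64733828, minus strand: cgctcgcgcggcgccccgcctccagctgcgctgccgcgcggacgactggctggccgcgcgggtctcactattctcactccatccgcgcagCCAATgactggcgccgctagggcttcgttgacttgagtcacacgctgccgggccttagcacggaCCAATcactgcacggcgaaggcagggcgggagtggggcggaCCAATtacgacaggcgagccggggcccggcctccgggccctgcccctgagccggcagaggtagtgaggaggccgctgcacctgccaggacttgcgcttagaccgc
Hmgcs1, whose change did not pass, held 4 CCAAT boxes, while Cyp51 held 1 and Msmo1 3. None of these boxes overlapped the sterol regulatory element.

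Acacb and Fasn are shown as the highest rise and the chain-building enzyme of the fatty acid arm, and Fads2 as its fall.
Acacb, chr5:114165268-114165567, plus strand: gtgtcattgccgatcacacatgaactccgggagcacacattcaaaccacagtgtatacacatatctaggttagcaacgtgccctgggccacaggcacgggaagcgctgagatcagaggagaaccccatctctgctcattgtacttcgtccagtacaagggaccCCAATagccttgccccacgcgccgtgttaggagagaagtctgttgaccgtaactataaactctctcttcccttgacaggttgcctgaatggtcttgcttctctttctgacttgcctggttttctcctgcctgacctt
Fasn, chr11:120824498-120824797, minus strand: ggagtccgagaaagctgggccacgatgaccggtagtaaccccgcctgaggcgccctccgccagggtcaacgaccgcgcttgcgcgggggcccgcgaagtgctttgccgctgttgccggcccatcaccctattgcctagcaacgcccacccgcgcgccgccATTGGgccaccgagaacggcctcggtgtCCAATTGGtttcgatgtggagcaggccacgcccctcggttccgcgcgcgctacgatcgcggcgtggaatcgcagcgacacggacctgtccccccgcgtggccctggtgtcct
Fads2, chr19:10101454-10101753, minus strand: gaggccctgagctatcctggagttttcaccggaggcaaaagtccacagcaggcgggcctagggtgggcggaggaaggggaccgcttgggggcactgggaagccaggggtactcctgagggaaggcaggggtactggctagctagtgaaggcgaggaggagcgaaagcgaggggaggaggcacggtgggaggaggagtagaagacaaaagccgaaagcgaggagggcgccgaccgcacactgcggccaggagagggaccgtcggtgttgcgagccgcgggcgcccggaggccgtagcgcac
Acacb held 1 CCAAT box and Fasn 3, of which a pair on opposite strands overlapped. The Fads2 window held neither motif in capitals, and it held 1 match to the NF-kB consensus motif, as did that of Acacb.

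Genes around these pathways moved unevenly. In a list of enzymes that branch off cholesterol synthesis to other isoprenoids, 0 of 7 tested passed in either direction by limma, 3 were higher at an unadjusted p under 0.05, which 44.2% of all tested genes reached in either direction, and the median log2 fold change was 0.25. Of 21 tested genes for uptake, efflux, storage and SREBP processing 5 rose (23.8%, beside 23.4% of all tested genes) and 1 fell, with a median of 0.15, so the share called was near the background. Cyp27a1, which oxidises cholesterol to a bile acid precursor, had values of 9.29 and 9.03 in K5-IKKbeta skin and 8.36 and 8.22 in wild type skin, and rose 1.83-fold (adjusted p = 0.0035). Lrp1, an endocytic receptor for lipoproteins, rose 1.57-fold, Lipa, the lysosomal lipase that frees cholesterol, 1.49-fold, and Stard5, a sterol carrier related to Stard4, 1.40-fold. Npc1 and Npc2, which together export cholesterol from lysosomes and were picked after their values were seen, differed in direction. Npc1 fell by 0.36 on the log2 scale (adjusted p = 0.032), and Npc2 rose by 0.36 (adjusted p = 0.033).

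In the list of other fatty acid genes 19 of 25 tested rose (76.0%) and 4 fell (median log2 fold change 0.95). Over all tested genes 23.4% rose and 10.6% fell. Scd3, a stearoyl-CoA desaturase, had values of 12.42 and 12.23 in K5-IKKbeta skin and 9.44 and 9.61 in wild type skin, and rose 6.97-fold. Scd1, of the same family, had values of 14.25 and 14.39 in K5-IKKbeta skin and 13.07 and 13.15 in wild type skin, and rose 2.32-fold. Since Scd genes resemble each other closely in sequence, their separate values are uncertain. Elovl6, which lengthens the products of Fasn, rose 3.94-fold, and Dgat1, which makes triglycerides, 3.29-fold. The genes that fell were Fads3, at -2.11, Acsl3, which activates fatty acids, at -1.25, Fads6, at -0.58, and Scd2, at -0.54. Acsl3, Fads6 and Scd2 lie outside the naming rule and were picked after their values were seen. With Fads2, the Fads genes thus had 3 members that fell and Fads1 that did not pass.

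Markers of lipid-rich cells were also measured. Of 9 tested sebocyte markers 7 rose (77.8%, beside 23.4% of all tested genes) and 1 fell (median log2 fold change 0.98). The sum of their unlogged values was 33635 and 32492 in the K5-IKKbeta pools and 10332 and 10423 in the wild type pools. Far2, which makes fatty alcohols for wax, rose 8.54-fold, Cidea, a lipid droplet protein, 7.60-fold and Fa2h, which hydroxylates fatty acids, 5.55-fold. Mc5r, a receptor that marks sebocytes, gave -0.05, and Prdm1 fell by 1.22 on the log2 scale. Of 10 tested white adipocyte markers 4 rose and none fell, at a median log2 fold change of 0.39. At an unadjusted p under 0.05, 5 were higher and 0 lower, while 44.2% of all tested genes reached it in either direction. The adipocyte sums were 31735 and 38473 in the K5-IKKbeta pools and 29259 and 27005 in the wild type pools. Fabp4, an abundant fatty acid carrier of fat cells, gave 0.03.

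Other cell types moved as well. Over all tested genes 23.4% rose and 10.6% fell. Macrophage markers rose in 10 of 10 (median log2 fold change 1.07). Their sums were 12938 and 13531 in the K5-IKKbeta pools and 5676 and 5224 in the wild type pools. Skeletal muscle markers rose in 9 of 10 (median log2 fold change 0.95). Their sums were 111067 and 100132 in the K5-IKKbeta pools and 58839 and 57303 in the wild type pools. Epidermal markers rose in 8 and fell in 3 of 11 (median log2 fold change 0.53). Hair shaft markers fell in 11 of 11 (median log2 fold change -5.88). The hair shaft sums were 3315 and 4797 in the K5-IKKbeta pools and 113025 and 115387 in the wild type pools. No marker of these 6 lists was dim (below the 25th percentile) on all 4 arrays. Of 9 proliferation genes 0 passed by limma, with a median of 0.26. At an unadjusted p under 0.05, 2 were higher, while 44.2% of all tested genes reached it in either direction. The part of these cell types in the changes of the lipid synthesis genes was not tested.

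**Figure D4:**
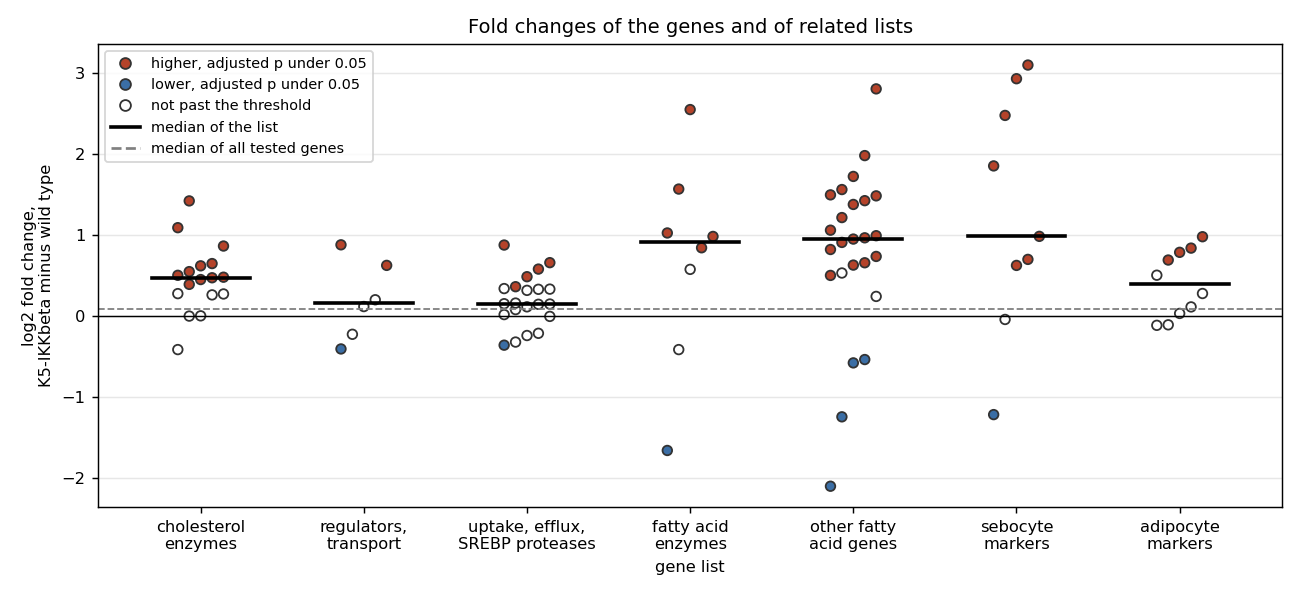
Log2 fold changes, K5-IKKbeta minus wild type, of the tested genes of each list, 1 point a gene, with the list's median as a black bar and the median of all tested genes as a dashed line. The medians are 0.47 for cholesterol enzymes, 0.15 for regulators and transport, and 0.15 for uptake, efflux and SREBP proteases. They are 0.91 for fatty acid enzymes, 0.95 for other fatty acid genes, 0.98 for sebocyte markers and 0.39 for adipocyte markers. Macrophage and skeletal muscle markers, with medians of 1.07 and 0.95, are not plotted.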

How the data were processed

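RNA from the skin of the back had been hybridised to 4 Affymetrix arrays. The authors deposited RMA expression values per probe set, per the submitters' processing notes; the log base is not named, and the deposited values (2.65 to 14.67) were used as log2 without further normalization. RMA's version and the annotation used are not stated in the labels. RMA compresses large changes. The number of arrays limits the precision. The p-values rest on the spread between pools of mice, but not on that of each gene alone. Limma moderated each gene's variance toward a value drawn from all tested genes, with 4.0 prior against 2 residual degrees of freedom.

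Of 45101 probe sets, 34958 had a single gene symbol in the platform annotation, 932 several and 9211 none; 34754 were matched by gene identifier to the RefSeq table of GRCm38.p6 and 0 symbols changed. The brightest probe set stood for a gene, and genes with a mean above the 40th percentile of probe sets (6.33) were tested, which left 13074. Groups were compared with limma 3.58.1 in R 4.3.3 (lmFit, eBayes, two-sided), with Benjamini-Hochberg adjustment and a threshold of 0.05. Arms and lists were described by counts and medians with no test, since the smallest two-sided p of an exact permutation test here is 0.33. The procedure was tested on simulated data. Genes outside the 32 were named as up to 4 per pathway list with the largest change past the threshold, plus Scd1; marker genes named as examples and genes named as exceptions were chosen after their values were seen. The 32 genes and all lists were chosen with earlier results of these data known. Alternatives covered the dim filter, the probe set rule, normalization, moderation, a replicate block and each array left out.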

Additional observations from a re-analysis of the deposited data

How the results depend on the processing

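Of 15 alternative settings, all kept the sign of both arm medians and of their difference, which ran from -0.62 to -0.30. Changes of filter, moderation, test or block left the fold changes of the 31 genes as they were, so those settings could not alter these signs. Centring the arrays could not alter the difference between the arms. With the mean of all probe sets the cholesterol median was 0.32 and the fatty acid median 0.70, and Mvk, Fdps and Insig2, none of them called, changed sign to 0.0103, 0.0405 and -0.0136; higher calls went down to 15, without Idi1, Fdft1 and Hsd17b7. Without _x_at and _s_at probe sets Lss (adjusted p = 0.12) and Hsd17b7 (adjusted p = 0.053) were lost. Without moderation across genes 0 of the 31 genes were called higher and 1 lower (Stard4), and 134 of 13074 genes in all (4190 at an unadjusted p under 0.05); a test against a 1.2-fold change called 10 higher and 1 lower. Leaving out each array in turn gave 8 to 17 genes called higher, 1 to 4 called lower, cholesterol medians of 0.33 to 0.57 and fatty acid medians of 0.76 to 1.05; 9 of 20 calls held each time. In those fits the lone array of a group is assumed to vary like the other group, and the cause of these shifts was not tested. Fold changes then ran from -0.070 to 0.0594 for Mvk, -0.0867 to 0.0823 for Fdps and -0.56 to 0.10 for Insig1. Fdft1 and Ebp lost their calls with arrays centred on their median (adjusted p = 0.057 and 0.052) and with quantile normalization repeated after removal of hair genes (adjusted p = 0.064 and 0.055), and likewise with no filter (adjusted p = 0.058 and 0.051). The higher share of all called genes was 58.0% with hair genes removed and 59.2% with quantile normalization repeated on all genes, against 68.9% as reported. With the replicate block 18 genes were higher and 3 lower, with Fdft1 lost and Acaca and Fads1 called; deviations of same-numbered arrays correlated at 0.25 over 2 pairs, which share only a number. Detection calls were not used, so signal over background was judged by percentile alone.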

Other observations

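Of the listed enzymes that make or modify oxysterols, Ch25h, Cyp7b1 and Cyp46a1 had means too low to be tested, and they were picked after their values were seen. Ch25h, which makes an antiviral oxysterol, had log2 values of 7.23 and 7.001 in K5-IKKbeta skin and 5.37 and 5.50 in wild type skin. Cyp7b1, which acts on the product of Ch25h, had values of 7.03 and 6.77 in K5-IKKbeta skin and 5.43 and 5.26 in wild type skin. For Ch25h and Cyp7b1 both K5-IKKbeta pools lay above both wild type pools. Cyp46a1, which hydroxylates cholesterol, had values of 6.17 and 6.10 in K5-IKKbeta skin and 6.34 and 6.42 in wild type skin, the opposite order. No test is given, and 1 wild type array each of Ch25h and Cyp7b1 lay below the 25th percentile of its probe sets.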
